A study of Mus musculus with 10 samples.

Results

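miR-221-3p and miR-222-3p are the guide strands of neighbouring hairpins on the mouse X chromosome and share a seed, the bases near the 5′ end that select target transcripts. They were taken by name (rows mmu-miR-221-3p and mmu-miR-222-3p) from the deposited tables, where they make 2 of 1139 mature miRNAs, and both were among the 457 that passed the filter on low counts. The cluster is known for restraining the cell-cycle inhibitor p27 (Cdkn1b) and the receptor Kit, and for its presence in endothelial and smooth muscle cells of vessels. miR-222 is also known to rise in the heart with exercise and to take part in exercise-induced heart growth. CITED4, a transcriptional co-regulator, is another exercise-induced factor of heart muscle, which gives the question of whether these miRNAs differ when it is missing.

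Small RNA was sequenced in 10 whole heart samples of male C57Bl6N mice, all taken 1 week after transverse aortic constriction, an operation that narrows the aorta and loads the left heart with pressure. In the knockout group (5 libraries) CITED4 was deleted, and in the control group (5 libraries) the gene was floxed, that is, flanked by recombination sites. The age of the mice and the promoter or cell type that drives the recombinase are not given in the labels. No hearts without the operation and no exercised hearts were analysed here. The libraries held from 7526091 to 18369483 counts and from 678 to 785 detected miRNAs, and the upper limit behind a count of 0 was 0.399 counts per 1000000 (CPM) in the shallowest library (3 counts, counting error only). In bulk heart RNA, fewer cells of a type and less of a miRNA per cell cannot be told apart. Heart muscle was plainly present: miR-1a-3p, a muscle miRNA, averaged 351201 ± 122202 CPM over the 5 controls and 299884 ± 77127 CPM over the 5 knockouts (SD).

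The seed is shown first, since it makes the guides members of the same target family. In both sequences (RefSeq, GRCm38.p6, 5′ to 3′) capitals mark bases 2 to 8.
miR-221-3p: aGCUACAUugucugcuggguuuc
miR-222-3p: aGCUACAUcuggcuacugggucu
Both guides are 23 bases long, and their first 8 bases are identical. Over the whole length, aligned without gaps, 11 of 23 positions are identical. The 3′ parts share a run of 6 bases at a shifted position. Only 3 of the 1679 mature names in the RefSeq table carry this seed, and the third, miR-1928, is not a row of the tables analysed here. Of the 457 tested miRNAs, 390 have an entry in that table, so the seed was not looked up for the rest. The seed family is used here for these 2 miRNAs.

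The hairpins lie on the minus strand of chromosome X, at chrX:19146294-19146388 for Mir221 and chrX:19146893-19146971 for Mir222 (GRCm38), with 504 bases between them. No other gene of GENCODE release M21 overlaps them. The nearest is the noncoding transcript Gm14636, on the same strand and 10009 bases away. The hairpins are shown because their arms are compared; capitals mark the mature strands that RefSeq lists.
Mir221: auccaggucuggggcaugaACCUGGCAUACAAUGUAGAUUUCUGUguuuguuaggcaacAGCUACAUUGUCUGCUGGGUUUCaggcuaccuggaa
Mir222: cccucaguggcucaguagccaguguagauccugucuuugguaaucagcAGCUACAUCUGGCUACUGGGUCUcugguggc
In each hairpin the 3′ strand (3p) is the guide and the 5′ strand (5p) is the passenger, the arm that is usually degraded.

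miR-221-3p carried nearly all reads of the family. Its read count was 18366, 14996, 8666, 10276 and 8766 in control replicates 1 to 5 and 17871, 16955, 20631, 12373 and 25585 in knockout replicates 1 to 5. Scaled for library size (CPM with TMM factors, which balance libraries on the bulk of miRNAs), these were 1592, 1318, 1014, 1268 and 1062 CPM in controls and 1474, 1666, 1303, 1174 and 1402 CPM in knockouts. The groups overlapped: control replicate 1 was above every knockout except replicate 2, and knockout replicate 4 was below 3 controls. The controls averaged 1251 ± 231 CPM and the knockouts 1404 ± 185 CPM (SD, n = 5 each). miR-221-3p ranked 48th of the 457 tested miRNAs by mean level.

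miR-222-3p had far fewer reads. It had 305, 236, 281, 210 and 223 reads in control replicates 1 to 5, and 375, 238, 342, 276 and 466 in knockout replicates 1 to 5. Its level was 26.4, 20.7, 32.9, 25.9 and 27.0 CPM in controls and 30.9, 23.4, 21.6, 26.2 and 25.5 CPM in knockouts. The highest and the lowest library were both controls, so the knockout values lay within the control range. The controls averaged 26.6 ± 4.31 CPM and the knockouts 25.5 ± 3.53 CPM (SD, n = 5 each), and the miRNA ranked 209th of 457.

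**Figure D1:**
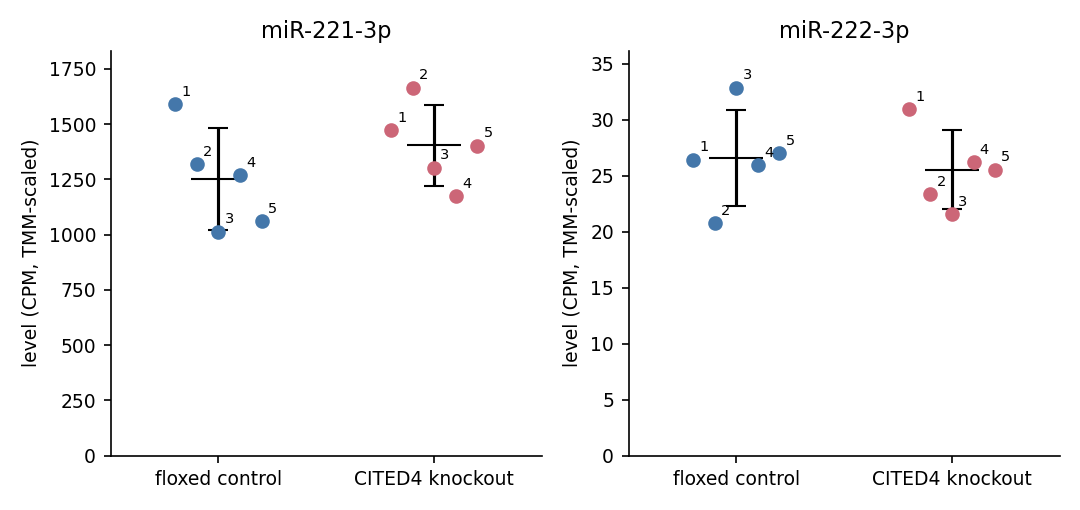
Level of each guide in CPM (vertical axes, from 0) by genotype. Points are libraries, numbered by replicate, and bars give the mean ± SD of 5 libraries; the genotypes overlap for both miRNAs.

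Neither guide passed the test between the genotypes. For miR-221-3p the log2 fold change, knockout over control, was 0.17 ± 0.15 (SE), with a 95% interval from -0.16 to 0.49 and an adjusted p of 0.66 (edgeR, quasi-likelihood). As a ratio this was 1.12-fold, with an interval from 0.894 to 1.41. For miR-222-3p it was -0.06 ± 0.17 (SE), with an interval from -0.42 to 0.30 and an adjusted p of 0.87 by the same method, or 0.960-fold with an interval from 0.749 to 1.23. Both intervals hold 0. The log2 fold change of miR-221-3p was 0.28 without control replicate 1 (edgeR's adjusted p 0.31) and 0.28 with library totals alone. Of the members, 0 of 2 passed, beside 0 of all 457 tested miRNAs (0%). At an unadjusted p under 0.05 there were 0 of 2 members, beside 29 of 457 (6.35%), of which 13 were higher in knockouts (2.84%) and 16 lower (3.5%). DESeq2 and limma-voom also passed 0 miRNAs after adjustment. miR-222-3p had a positive fold change, at 0.05 on the log2 scale, when library totals alone were used for scaling, a setting that moved the median of all miRNAs from 0.03 to 0.14. Its sign also turned without control replicate 3 (0.06) and without knockout replicate 2 (0.01) or 3 (0.02).

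The guides were among the more even miRNAs from library to library. With group means removed, the SD of log2 CPM was 0.23 for miR-221-3p and 0.22 for miR-222-3p, against a median of 0.39 over the 457 tested miRNAs. Of these, 369 varied more than miR-221-3p and 383 varied more than miR-222-3p. Rare miRNAs carry more counting error, so each guide was also set beside miRNAs of like depth. Among the 93 other miRNAs with a mean count within a factor of 2 of miR-222-3p, 76 varied more than it did. Among the 30 such miRNAs around miR-221-3p, 19 varied more. Counting error alone would give a coefficient of variation of about 0.842% for miR-221-3p and 5.95% for miR-222-3p.

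The ratio of the clustered guides needs no scaling, because both counts come from the same library. It compares reads, and whether the different sequences, passenger arms included, are captured equally well was not tested. There were 60.2, 63.5, 30.8, 48.9 and 39.3 reads of miR-221-3p for each read of miR-222-3p in control replicates 1 to 5. The ratio was 47.7, 71.2, 60.3, 44.8 and 54.9 in knockout replicates 1 to 5. Control replicate 3 was lowest and knockout replicate 2 highest, and 4 of the 5 knockout ratios were inside the control range. The mean ratio was 48.6 ± 13.8 in controls and 55.8 ± 10.6 in knockouts (SD, n = 5). On the log2 scale knockouts were 0.23 higher (exact two-sided permutation test, p = 0.35, with 0.0079 the smallest p that 5 against 5 allows). The 95% interval of that difference, from inverting the exact test, ran from -0.32 to 0.83, or from 0.802-fold to 1.78-fold. The difference was 0.08 without control replicate 3, 0.14 without knockout replicate 2 and 0.34 without control replicate 2.

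Counting error was smaller than the spread of this ratio between libraries. The exact 95% binomial interval of the ratio ran from 27.4 to 34.9 in control replicate 3 and from 53.8 to 67.7 in control replicate 1, with no overlap within the same genotype. Among knockouts, the interval of replicate 4 (39.8 to 50.7) did not reach that of replicate 2 (62.7 to 81.3). The SD of the log2 ratio between libraries, group means removed, was 0.36, against 0.09 from counting. The first also holds any difference between the heart samples and their preparation, which these data cannot separate. Expressed as a share, miR-222-3p made up between 1.38% and 3.14% of the reads of the seed family.

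**Figure D2:**
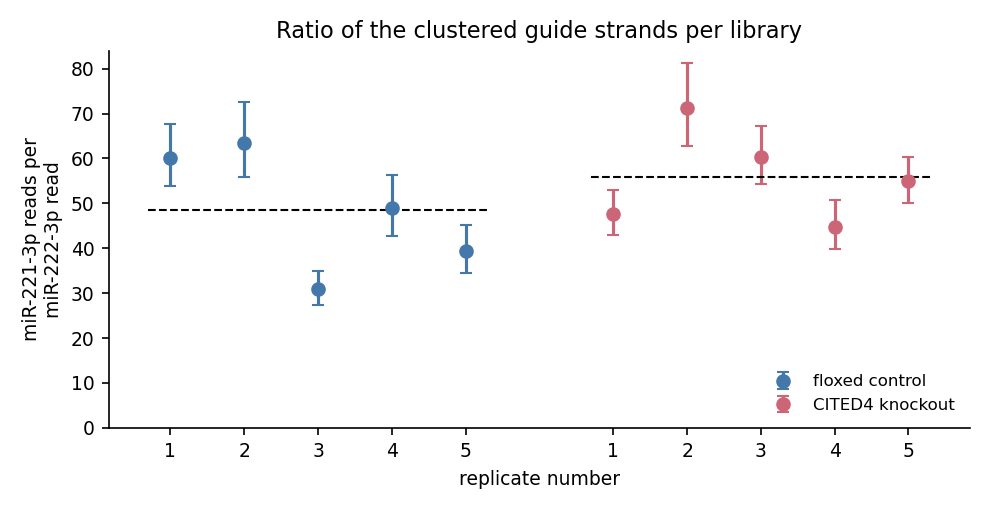
Reads of miR-221-3p per read of miR-222-3p in each library (vertical axis, from 0), by replicate number and genotype. Bars are exact 95% binomial intervals, which cover counting error only, and dashed lines are group means; ratios run from 30.8 in control replicate 3 to 71.2 in knockout replicate 2.

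The passenger arms did not show the same imbalance between the hairpins. miR-221-5p had 37, 23, 31, 39 and 8 reads in control replicates 1 to 5 and 35, 36, 63, 29 and 81 in knockout replicates 1 to 5. miR-222-5p had 9, 12, 8, 1 and 7 reads in controls and 13, 6, 13, 10 and 9 in knockouts. Summed over the 10 libraries, there were 52.3 reads of miR-221-3p per read of miR-222-3p (exact 95% interval 50.5 to 54.3), but 4.34 reads of miR-221-5p per read of miR-222-5p (3.43 to 5.54). These intervals cover counting error of pooled reads and not the spread between libraries. The passenger ratio was lower than the guide ratio in all 10 libraries, running from 1.14 in control replicate 5 to 39.0 in control replicate 4, where miR-222-5p had a single read.

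Put per hairpin, the passenger took a larger part of the reads of miR-222 than of miR-221. The 5p arm made up 0.236% ± 0.126 of miR-221 reads in controls and 0.252% ± 0.0546 in knockouts (SD, n = 5). For miR-222 it was 2.80% ± 1.55 in controls and 2.97% ± 0.761 in knockouts. Across the 10 libraries the share ran from 0.0912% to 0.378% for miR-221 and from 0.474% to 4.84% for miR-222, so the hairpins did not overlap. These shares were not tested between genotypes, since both passengers had fewer than 10 reads in at least 1 library. The level of miR-221-5p passed the low-count filter and was tested, with a control mean of 2.93 ± 1.48 CPM and a knockout mean of 3.52 ± 0.715 CPM (SD), and its log2 fold change was 0.27 ± 0.36 (SE; edgeR's adjusted p 0.73). miR-222-5p did not pass that filter and was not tested.

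No joint variation of the guides was detected across libraries. Over the 10 libraries, log2 CPM of miR-221-3p and miR-222-3p had a Pearson r of -0.35 (permutation test, p = 0.33) and a Spearman rho of -0.36 (permutation test, p = 0.31). Control replicate 3, with the lowest miR-221-3p and the highest miR-222-3p, carried much of this: without it r was -0.02. Without the 2 libraries farthest from the median of miR-221-3p (control replicate 3 and knockout replicate 2) r was 0.12. Without knockout replicate 2 alone r was -0.27. With group means subtracted r was -0.32 and rho was -0.55. With library totals as the only scaling r was 0.51 (permutation test, p = 0.13), so its sign depended on the scaling. Each genotype, with 5 libraries, is too small for an r of its own.

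**Figure D3:**
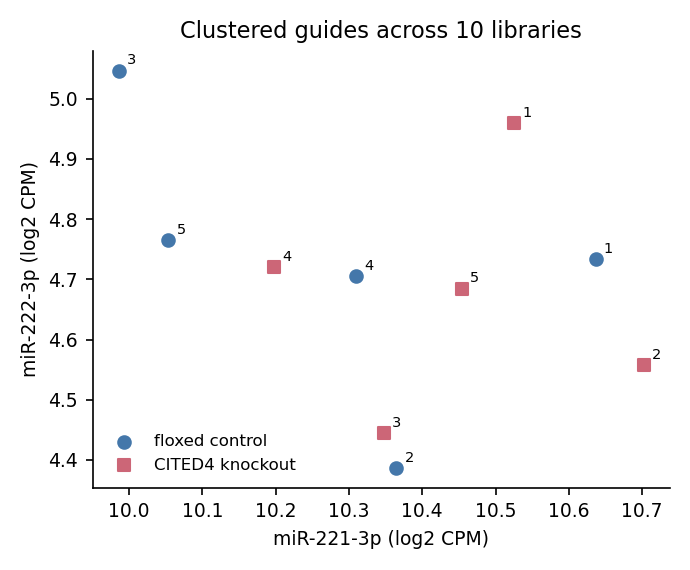
Level of miR-222-3p against miR-221-3p (both axes log2 CPM, not starting at 0), with 1 point per library, numbered by replicate. Circles are controls and squares knockouts; control replicate 3 stands at the upper left, and Pearson r over the 10 libraries was -0.35.

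For comparison, the same measure was taken for pairs of neighbouring hairpins on the same strand within 10000 bases. The more abundant arm stood for each hairpin. Hairpins were left out where that arm had no entry or several entries in the RefSeq table, so some neighbouring pairs are missing. The set held 56 pairs, this one included. Most of them lie on chromosome 12, in the imprinted Dlk1-Dio3 cluster, where r ran from -0.44 to 0.98. That cluster therefore weighs heavily in the comparison, and the pairs outside it were not summarised apart. The median r of the 56 pairs was 0.53, 45 of 56 were above 0, and 3 pairs had an r below that of miR-221-3p and miR-222-3p. This place depended on the scaling and on control replicate 3: with library totals only, r was 0.51 beside a median of 0.72 and 17 pairs were lower. Without control replicate 3, r was -0.02 beside a median of 0.66 and 7 pairs were lower. Both settings were chosen after the values were seen. The typical difference in level within a pair was 3.85-fold (median), and 1 pair had a larger difference than the 50.5-fold between the mean log2 levels of miR-221-3p and miR-222-3p. Among the 21 pairs whose rarer member was at 20 CPM or more, the median r was 0.48. That limit was chosen after the values were seen. Of these pairs, 1 had a lower r and 0 had a larger difference in level. The number with a lower r was 5 with library totals only and 3 without control replicate 3. The pairs share libraries and in part primary transcripts, and the counts describe where this pair lies without a test. They hold within the set only. For example, the neighbours miR-143-3p and miR-145a-5p were not among the 56 pairs. They averaged 30855 and 536 CPM over the controls, and 30303 and 453 CPM over the knockouts.

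The 5 miRNAs whose pattern across the 10 libraries was most like miR-221-3p and the 5 most like miR-222-3p had no member in common. For miR-221-3p the 5 highest Pearson r among 456 others were those of miR-369-5p (0.93), miR-21a-5p (0.91), miR-1839-5p (0.91), miR-541-5p (0.90) and miR-382-5p (0.90). miR-21a-5p is abundant and is known for its link to fibrosis of the heart. miR-369-5p, miR-541-5p and miR-382-5p lie on chromosome 12, between 109733781 and 109743452, in the imprinted Dlk1-Dio3 cluster. For miR-222-3p they were miR-331-3p (0.94), miR-339-5p (0.79), miR-210-5p (0.76), miR-29b-2-5p (0.73) and miR-1249-3p (0.69), each on a chromosome of its own. Of these, miR-210-5p was rare, averaging 2.12 CPM in controls and 2.01 CPM in knockouts, so counting error weighs more in its r. miR-222-3p came 308th in likeness to miR-221-3p, and miR-221-3p 375th in likeness to miR-222-3p. These r values describe 10 libraries that share scaling factors, and the miRNAs were picked for them. miR-21a-5p was at 29414 to 40156 CPM in control replicates 3, 4 and 5 and knockout replicate 4. In the rest it was at 66377 to 108137 CPM. Its r with miR-221-3p therefore also holds the difference between these sets of libraries. Between genotypes, 0 of the 10 miRNAs named for likeness passed, with adjusted p values from 0.64 to 0.96 in edgeR's test.

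The summed levels of 2 marker lists are given beside miR-221-3p library by library; these lists were singled out after their values were seen. The first is the summed level of 5 miRNAs enriched in fibroblasts, of which miR-21a-5p, also 1 of the miRNAs picked for likeness, made up 76.7%. The second is the sum of 3 miRNAs of red blood cells, of which miR-486a-5p, also made in muscle, made up 97.1% (miR-451a, the fourth, is not a row of the tables analysed here). The fibroblast sum was 112188, 104739, 42556, 48738 and 41362 CPM in control replicates 1 to 5 and 103560, 136443, 85319, 55145 and 115944 CPM in knockout replicates 1 to 5. There was a gap between 55145 and 85319 CPM, with control replicates 3, 4 and 5 and knockout replicate 4 below it. These were also the 4 libraries with the lowest miR-221-3p, at 1014 to 1268 CPM.

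The erythroid sum was high in the libraries where the fibroblast sum was low. It was 13758, 19148, 33012, 25804 and 29596 CPM in control replicates 1 to 5 and 11531, 13001, 19380, 25237 and 16892 CPM in knockout replicates 1 to 5. The 4 libraries below the fibroblast gap were the 4 highest here. Because the libraries fell into separate sets, no r with the marker sums was taken over all 10. Among the 6 libraries above the gap, miR-221-3p had a Pearson r of 0.79 with the fibroblast sum (Spearman rho 0.71) and of -0.81 with the erythroid sum (rho -0.83). miR-222-3p had an r of 0.18 (rho 0.09) and -0.82 (rho -0.77), and the log2 ratio of the guides 0.39 (rho 0.31) and 0.29 (rho 0.31). These values depended on the scaling: with library totals only, r with the fibroblast sum was 0.92 for miR-221-3p and 0.68 for miR-222-3p, and r with the erythroid sum was -0.89 and -0.91. Without the 2 libraries farthest from the median of each measure, which leaves 4, the 6 TMM-scaled r values in the order given were 0.55, -0.94, 0.49, -0.50, -0.40 and 0.26. They are descriptions with no p, since the lists and the libraries were singled out after their values were seen and miR-21a-5p makes up most of the fibroblast sum. Whether the makeup of the tissue samples plays a part in the level of miR-221-3p was not tested.

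**Figure D4:**
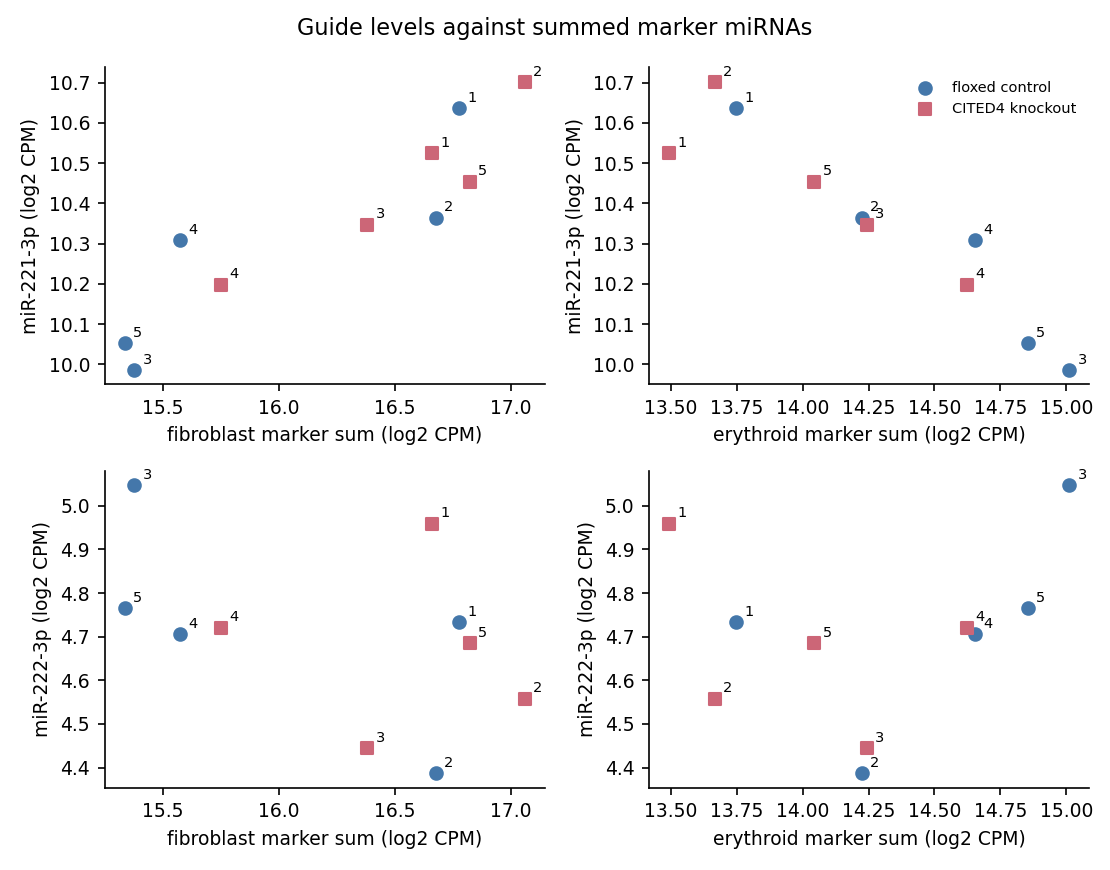
Log2 CPM of miR-221-3p (top) and miR-222-3p (bottom) against the log2 of the summed CPM of fibroblast markers (left) and erythroid markers (right); axes do not start at 0. Points are libraries numbered by replicate, circles for controls and squares for knockouts; control replicates 3, 4 and 5 and knockout replicate 4 lie apart on the fibroblast axis.

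The other marker lists bear on the vessel and muscle cells where the cluster is known to be made. The endothelial list, led by miR-126a-3p, had a summed level of 27256 to 36301 CPM in controls and 26215 to 35574 CPM in knockouts. The smooth muscle list, led by miR-143-3p, was at 28042 to 33842 CPM in controls and 26428 to 33157 CPM in knockouts. Both ranges overlapped between genotypes, as did those of the cardiomyocyte list (242897 to 504512 and 220821 to 387070 CPM) and the leukocyte list (1938 to 2194 and 1915 to 2035 CPM). Of the members tested in edgeR's fit, 1 of 5 endothelial, 2 of 4 smooth muscle and 1 of 6 cardiomyocyte miRNAs had a positive fold change. The same held for 5 of 5 fibroblast, 2 of 6 leukocyte and 0 of 3 erythroid miRNAs, beside 243 of all 457 tested. In each list 0 passed. The smallest unadjusted p in each list belonged to miR-151-5p (0.15), miR-145a-5p (0.15), miR-133a-3p (0.020), miR-21a-5p (0.14), miR-142a-5p (0.072) and miR-486a-5p (0.079), in the same order. The second smallest belonged to miR-126a-3p (0.33), miR-145a-3p (0.57), miR-133b-3p (0.024), miR-199a-3p (0.20), miR-150-5p (0.13) and miR-144-5p (0.19). The libraries below the fibroblast gap were 3 controls and 1 knockout. The part of this split in the counts of positive fold changes was not tested.

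The test was passed by 0 of 15 other miRNAs linked to the exercised heart. Of the 15, 4 had a positive and 11 a negative fold change, with a median log2 fold change of -0.15, beside 243 positive and 214 negative with a median of 0.03 over all 457. Before adjustment 2 of the 15 were below an unadjusted 0.05 in the edgeR fit, beside 29 of all 457 (6.35%). These were miR-133a-3p, a muscle miRNA that restrains growth of heart muscle cells, and miR-29c-3p, which targets collagen transcripts. For miR-133a-3p the controls averaged 1620 ± 340 CPM and the knockouts 1177 ± 211 CPM (SD), and the log2 fold change was -0.46 ± 0.17 (SE). For miR-29c-3p the means were 3173 ± 1138 and 2153 ± 583 CPM, and the log2 fold change was -0.56 ± 0.25 (SE). Both were highest in control replicates 3, 4 and 5 and knockout replicate 4, the libraries with the lowest fibroblast and highest erythroid sums, at 1469 to 1970 CPM of miR-133a-3p and 3057 to 4567 CPM of miR-29c-3p. The part of this in the fold changes was not tested. The adjusted p of both was 0.64, as it was for the next in order, miR-486a-5p (-0.49) and miR-29a-3p (-0.27). miR-133a-3p and miR-486a-5p also stand in the cardiomyocyte and erythroid lists.

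**Figure D5:**
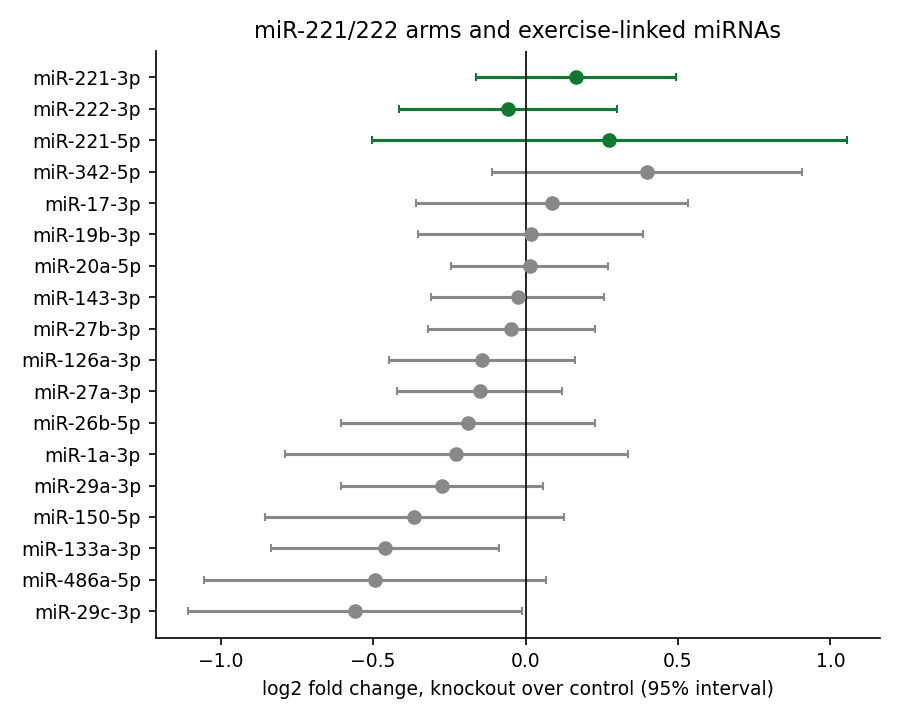
Log2 fold change, knockout over control, with 95% intervals from edgeR's fit (horizontal axis) for the 3 tested strands of the cluster (green) and 15 exercise-linked miRNAs (grey). The intervals of the cluster's strands all hold 0, and those of miR-133a-3p and miR-29c-3p lie below 0 before adjustment.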

How the data were processed

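Raw read counts per mature miRNA were deposited by the authors without normalization. A second deposited table holds a linear signal, the counts divided by 1 factor per library, which equals the DESeq2 size factor computed here within a relative tolerance of 1e-09. The submitters' processing notes list GRCm38 and the tools DESeq2, STAR, Bowtie and cutadapt 1.10, without roles. The miRNA annotation was not given in the sources used here, nor was the handling of multi-mapping reads or molecular identifiers.

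Columns were matched to libraries by title. The labels do not say whether libraries of a group came from separate animals, so p-values reflect library-to-library spread only, part of which may be technical. No 2 libraries of a genotype were duplicates (chi-square per degree of freedom at least 66.3).

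The 457 miRNAs kept by filterByExpr were fitted with edgeR 4.0.16 in R 4.3.3 (quasi-likelihood test, TMM, genotype as the only term), with Benjamini-Hochberg adjustment over all 457 and a threshold of 0.05. Standard errors are the log2 fold change over the square root of F. Log2 CPM used a prior count of 2. The ratio was tested by exact permutation (252 splits), and correlations over 10 libraries by 100000 permutations. Alternatives were DESeq2 1.42.0, limma 3.58.1 on counts and on log2 of the deposited signal plus 1, other scalings and filters, libraries left out, and a replicate block. Fits were tested on simulated data, whose changed miRNAs moved by more than the guides did here. How often a change as small as theirs would be found was not tested. Replicate numbers 1 to 5 occur in both groups. Deviations of same-number libraries correlated with an r of 0.45, 0.38, -0.08, 0.40 and -0.12 for numbers 1 to 5. Of these 5, 3 were above 0.1. The labels give no meaning to a number, so same-number libraries were not taken as pairs, and the block served as an alternative.

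The members and the marker and exercise lists were chosen with earlier results of these data known. Named miRNAs are the members and their passengers, miRNAs of the same seed, the 5 most like each member by Pearson r of log2 CPM, and those with the smallest p in each list (4 of the exercise list, 2 of others).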

Additional observations from a re-analysis of the deposited data

Results flagged for a closer look

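In 35 values (levels of the named miRNAs, the guide ratio, the passenger shares and the marker sums), the highest and lowest library of each genotype were examined, taking the gap to the next library divided by the range of the 5. Of 70 groups, 2 were above the 95% critical value of 0.71, where chance gives 1 in 20, or 3.5. Neither concerned miR-221-3p, miR-222-3p, their ratio or their passengers. Knockout replicate 4 had 566 CPM of miR-151-5p, a member of the endothelial list, against 408 to 453 CPM in the other knockouts (share of the range 0.717). Knockout replicate 3 had a smooth muscle marker sum of 26428 CPM, against 31544 to 33157 CPM in the other knockouts (0.760).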

How the results depend on the processing

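Each of 18 alternative fits also passed 0 miRNAs after adjustment, higher or lower, the guides included. The log2 fold change of miR-221-3p stayed positive in these 18 fits, from 0.12 to 0.28, with adjusted p values from 0.31 to 0.99. That of miR-222-3p was negative in 14 fits, from -0.12 to -0.02, and positive in 4: 0.054 with library totals only, 0.056 without control replicate 3, and 0.01 and 0.02 without knockout replicates 2 and 3. With the replicate block the log2 fold changes were 0.18 and -0.05 and changed no call. Of 10 libraries, 4 were closest to the library of the same number in the other genotype. The 29 miRNAs below an unadjusted 0.05 became 14 with library totals only, 102 of 1105 without a low-count filter, 45 of 1105 with DESeq2 and 72 with the replicate block, and 6 to 84 with 1 library left out. It moved by over 1.5 times without control replicate 1 (84), 3 (16), 4 (10) or 5 (6) and without knockout replicate 1 (8), 2 (13), 4 (65) or 5 (18). The genotype difference of the log2 ratio of guides kept its sign in 13 alternatives, from 0.08 to 0.34 with 1 library left out, with exact permutation p values from 0.17 to 0.70. Its block version, an exact sign-flip permutation test of same-number pairs, gave 0.23 with p = 0.38, where the smallest possible p is 0.0625. The correlation of the guides was positive in 2 alternatives, at 0.51 with library totals only and 0.12 without the 2 libraries farthest from the median of miR-221-3p, and ran from -0.53 to -0.02 with 1 library left out. With group and number means subtracted (replicate block) it was -0.49, without a test. The mean log2 ratio of guide to passenger lay between 8.64 and 8.87 for miR-221 and between 4.99 and 5.36 for miR-222 in their 12 alternatives each. Where a value changed, the cause was not tested. Depth limits the passenger arms most: a single read of miR-222-5p in control replicate 4 sets its share of that hairpin to between 0.0120% and 2.61% (exact 95% interval).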
